A study of Mus musculus with 4 samples.

Results

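The enzymes of glycolysis, the pentose phosphate pathway and the TCA cycle were examined in mouse pancreatic islet cells treated with MOTS-c. The set was a list of 48 gene symbols that follows glucose carbon from glucose-6-phosphate to the TCA cycle, together with the pyruvate dehydrogenase kinases, pyruvate carboxylase, the malic enzymes, the NADP-dependent isocitrate dehydrogenases and the glycerol phosphate shuttle. Symbols were matched to probes through RefSeq accessions, and each gene was read from its brightest probe that was kept. All 48 genes were among the 22911 genes with a symbol on the array, and 47 of them were among the 15470 genes with a kept probe. The gene without one was Pdk4.

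Gene expression had been measured on 4 one-color Agilent arrays. Pancreatic islet cells came from 4 littermates of the C57BL/6 strain, labeled as male and 60 weeks of age, and received 10 μM of a scrambled peptide or of MOTS-c for 24 h ex vivo. MOTS-c is a short peptide encoded in the mitochondrial genome, and the scrambled peptide served as the control. In both groups the islets had been released with collagenase, picked by hand and dispersed into single cells before treatment, and no cell type was sorted. Replicates carried the numbers 1 and 2 for scrambled and 2 and 3 for MOTS-c. The p-values measure the spread between these arrays.

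In β-cells, glycolysis is coupled to secretion. Glucose carbon runs to pyruvate, little of it leaves as lactate, and pyruvate enters the mitochondria either through the pyruvate dehydrogenase complex or through pyruvate carboxylase. Oxidation in the TCA cycle feeds the respiratory chain, and the ATP that results closes potassium channels and triggers insulin release. The NADH made by glycolysis passes its electrons to the mitochondria through the glycerol phosphate and malate-aspartate shuttles. The pentose phosphate pathway, malic enzyme and the NADP-dependent isocitrate dehydrogenases supply NADPH, the reducing agent of lipid synthesis and of the defense against peroxides.

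Spots well above local background made up between 61.6% and 65.0% of gene spots on the 4 arrays, 0 gene spots were saturated, and all arrays lay on 1 slide. Probes of the β-cell hormones were bright on every array, with Ins1 between 18.09 and 18.13 and Ins2 between 18.54 and 18.64 in log2 signal. The sex on the labels was at odds with the arrays. The 7 Y-linked probes were above background in 0 of 28 readings, and the Xist probe was above it in 4 of 4. The 4 arrays did not differ in this respect. The cells were measured in bulk, and fewer cells of a type cannot be told apart from less RNA per cell.

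Most enzymes of central carbon metabolism differed little between MOTS-c and scrambled. Of 47 genes, 23 had a higher and 24 a lower mean with MOTS-c, and the median log2 fold change was -0.00, beside 0.01 over all 35087 probes tested. When the arrays were scaled to their 75th percentile in place of the quantile step, 17 genes were higher and 30 lower, with a median of -0.06 beside 0.00 over all probes, and Dlst, Eno1, Gpi1, Pgam1, Pkm and Taldo1 turned from higher to lower. A log2 change smaller than 0.1 was found for 26 genes (55.3%, beside 37.7% of all probes). One smaller than 0.25 was found for 43 genes (91.5%, beside 72.0%). All probes are a dimmer reference, with a median log2 signal of 8.57 beside 13.0 for the set. The 95% interval lay within 1.5-fold in both directions for 37 genes. For the other 10 genes a difference beyond 1.5-fold in at least one direction lay inside the interval. Only Gpd1, the cytosolic enzyme of the glycerol phosphate shuttle, differed by 1.5-fold or more (2.13% of the set, beside 5.24% of all probes). Gpd1 was 1.90-fold lower with MOTS-c.

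No gene of the set passed the adjusted threshold. In limma with Benjamini-Hochberg adjustment over all probes, 0 of 47 genes had an adjusted p under 0.05, and 0% of all probes did (0 of 35087). At an unadjusted p under 0.05, the set had 0 genes higher with MOTS-c, beside 3.03% of all probes, and 1 gene lower (2.13%), beside 4.82% of all probes. These made 2755 probes in all. The methods' t-test left 0 genes of the set at either level, with 2313 probes under 0.05 unadjusted and 1 adjusted. The unadjusted count for the set became 3 without MOTS-c replicate 2 (Gpd1, Me3 and Pdk2) and 2 without MOTS-c replicate 3 (Gpd1 and Pdk1).

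The arrays did not overlap between groups for 20 genes, of which 9 were higher with MOTS-c (19.1%, beside 19.4% of all probes) and 11 lower (23.4%, beside 18.6%). These shares were near the background. MOTS-c replicate 3 was the lowest array for 17 genes (36.2%, beside 33.3% of all probes), and scrambled replicate 2 for another 17 genes (36.2%, beside 26.0%).

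**Figure D1:**
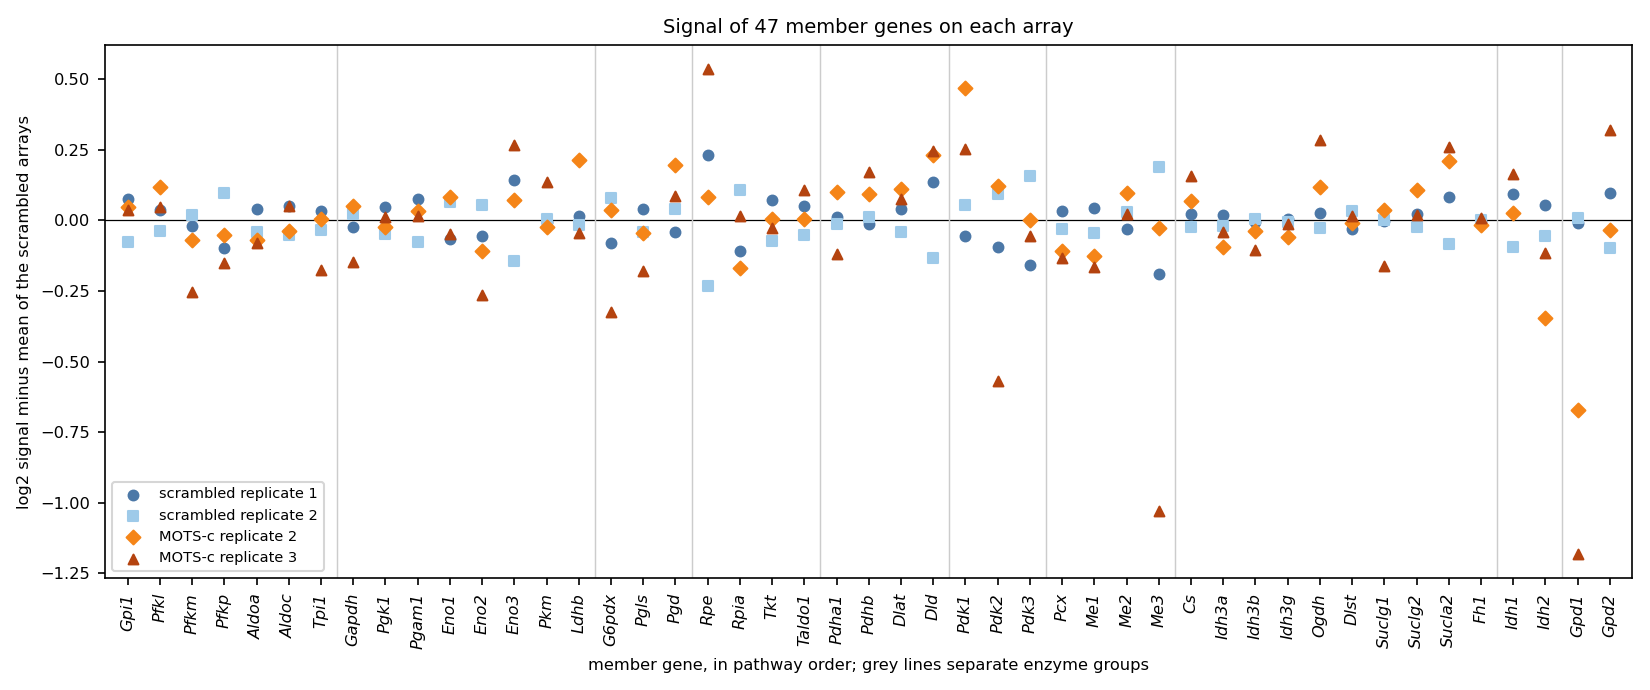
Each point is the log2 signal of 1 gene on 1 array minus the mean of its 2 scrambled arrays (vertical axis, log2 units), with genes in pathway order along the horizontal axis. Most points lie within 0.25 of the scrambled mean, while Gpd1 was lower on both MOTS-c arrays and Me3 and Pdk2 were low on MOTS-c replicate 3 alone.

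Gpd1, glycerol-3-phosphate dehydrogenase 1, turns dihydroxyacetone phosphate into glycerol-3-phosphate and oxidizes cytosolic NADH. Its deposited intensity was 10152 and 9647 on the scrambled arrays, replicates 1 and 2, and 6487 and 4504 on the MOTS-c arrays, replicates 2 and 3. After normalization the log2 signals were 13.29, 13.30, 12.62 and 12.11 in the same order. The groups did not overlap, and MOTS-c replicate 3 was the lowest array. The log2 fold change was -0.93 with an SE of 0.20 and a 95% interval from -1.47 to -0.39 (limma, unadjusted p = 0.00739, adjusted p = 0.505). The methods' t-test on the same values, in which no spread is borrowed from other probes, missed the unadjusted threshold. A second, dimmer Gpd1 probe read 7.32 and 7.46 with scrambled and 6.87 and 6.11 with MOTS-c, with a log2 fold change of -0.90 and an SE of 0.28 (limma, adjusted p = 0.564). The fold change of the bright probe was -1.18 without MOTS-c replicate 2 and -0.68 without MOTS-c replicate 3, and it stayed at or beyond 1.5-fold under each of the 12 other settings.

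Gpd2, the mitochondrial partner of Gpd1 that hands the electrons to the respiratory chain, did not show the pattern. Its log2 signals were 11.44 and 11.24 with scrambled and 11.31 and 11.66 with MOTS-c, and the groups overlapped. The log2 fold change was 0.14 with an SE of 0.18 (limma, adjusted p = 0.883), and a second probe gave 0.01. Within each array, Gpd1 relative to Gpd2 was lower with MOTS-c by a log2 difference of -1.07. Relative to Gpd1l, which encodes a homologous dehydrogenase, the difference was -1.16. Gpd1l itself was higher on both MOTS-c arrays, by 0.23, and this widened its ratio. For both ratios the exact two-sided permutation p was 0.333. That is the smallest that 2 arrays against 2 can give, so the test cannot decide.

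Gpd1 is also abundant in adipocytes, and exocrine RNA can come with isolated islets, so markers of other cell types are given beside it. Of 9 acinar markers 4 were kept, and their summed signal was 11.84 and 11.97 with scrambled and 11.34 and 11.03 with MOTS-c on the log2 scale. Most of that sum was Cela1, a pancreatic elastase, with a log2 fold change of -0.76. Of the other 3, Cela2a and Cel, a second elastase and the bile salt lipase, had -0.42 and -0.14 with overlapping groups, and Ctrb1, a chymotrypsinogen, had 0.33 and was higher on both MOTS-c arrays. The defining acinar genes Cpa1, Prss2, Pnlip, Amy2a5 and Try4 were not above background on enough arrays to be kept. Of 8 mesenchymal markers 3 were kept, with a summed log2 signal of 12.46 and 12.32 with scrambled and 12.24 and 12.24 with MOTS-c. Acta2 made up most of that sum, with a log2 fold change of -0.14. Col1a2 had -0.30 with overlapping groups, and Pdgfra, a receptor of fibroblast-like cells read from a dim probe, had -1.05. Of 9 adipocyte markers, a list drawn up after the Gpd1 values were seen, 6 were kept. Their median log2 fold change was -0.20, and 0 had an unadjusted limma p under 0.05. Plin1 and Cidec, both dim, had -0.61 and -0.62, Fabp4 had -0.27 and Pparg -0.13, while Lep and Lipe had 0.07 and 0.06. Plin1 and Pparg were lower on both MOTS-c arrays, and the groups overlapped for the others. Adipoq, Cfd and Retn, which define adipocytes, were not kept. The part of any of these in the Gpd1 difference was not tested.

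**Figure D2:**
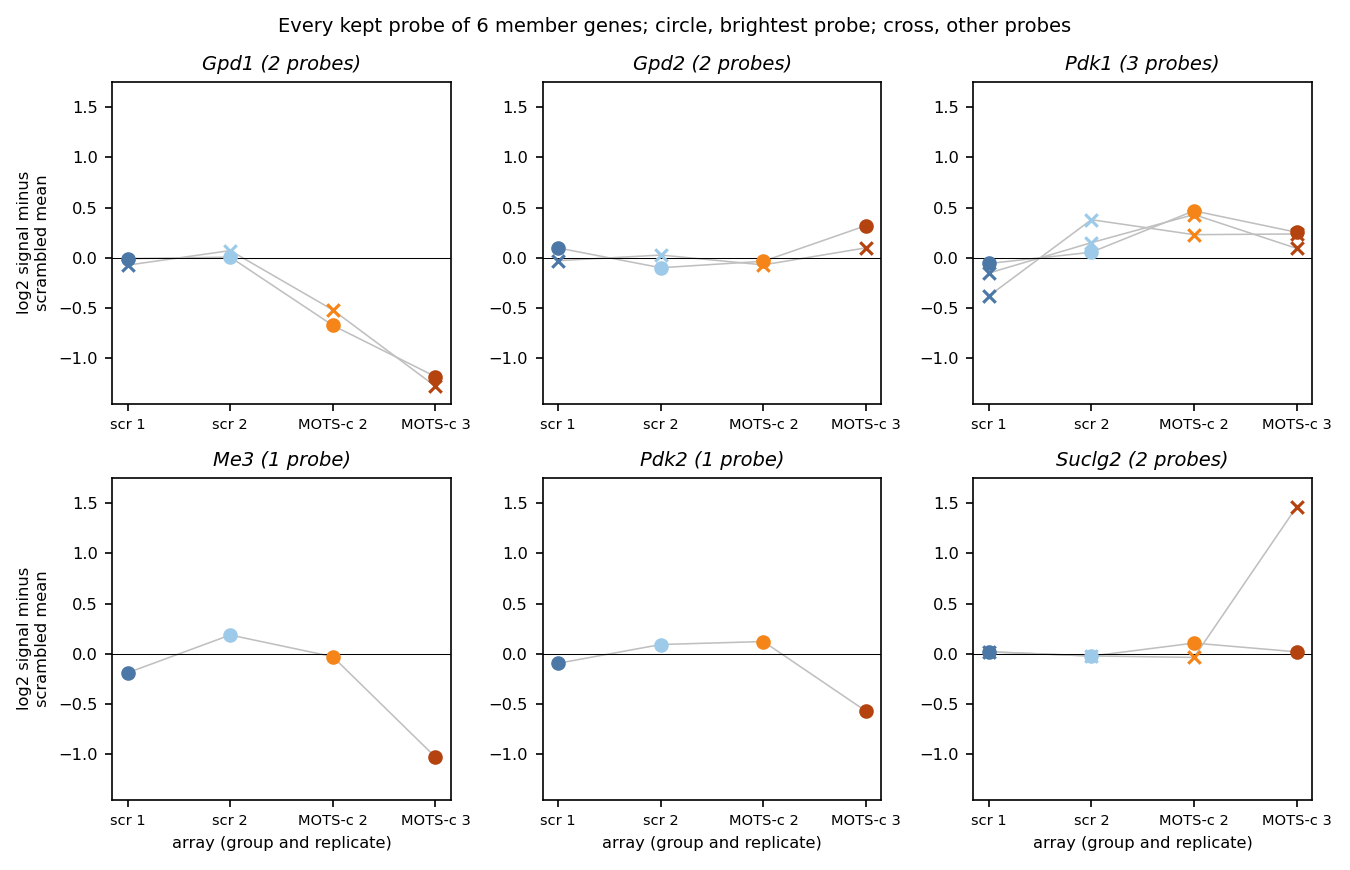
Each panel shows every kept probe of 1 gene, as log2 signal minus the mean of the 2 scrambled arrays (vertical axis) on the 4 arrays (horizontal axis, with no order among replicates), and grey lines join the values of 1 probe. Both Gpd1 probes were lower on both MOTS-c arrays, the 3 Pdk1 probes had higher means with MOTS-c, and the dimmer Suclg2 probe stood apart on MOTS-c replicate 3 alone.

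The upper, energy-investing part of glycolysis had 7 genes, all tested, with a median log2 fold change of -0.07 and a range from -0.16 to 0.08. Phosphofructokinase commits glucose carbon to glycolysis, and its 3 subunits did not move together. Pfkl, the liver-type subunit, had log2 signals of 11.22 and 11.15 with scrambled and 11.30 and 11.23 with MOTS-c, a change of 0.08 with an SE of 0.12 (limma, adjusted p = 0.908). Pfkm, the muscle type, read 13.01 and 13.05 against 12.96 and 12.77, a change of -0.16 with an SE of 0.13 (limma, adjusted p = 0.820). Pfkp, the platelet type, read 12.32 and 12.51 against 12.37 and 12.26, a change of -0.10 with an SE of 0.14 (limma, adjusted p = 0.897). The arrays did not overlap between groups for Pfkl or Pfkm, in opposite directions, and they overlapped for Pfkp, whose second probe gave 0.00. Gpi1, glucose-6-phosphate isomerase, differed by 0.04, and its 3 probes lay between 0.03 and 0.04. The aldolases Aldoa and Aldoc differed by -0.07 and 0.01, and the triose phosphate isomerase Tpi1 by -0.09.

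Genes of the lower, ATP-yielding part of glycolysis had a median log2 fold change of 0.02 under quantile normalization and -0.05 when the arrays were scaled to their 75th percentile, over 8 genes. Pkm, pyruvate kinase, which makes pyruvate and ATP in the last step, read 14.58 and 14.59 with scrambled and 14.56 and 14.72 with MOTS-c. The groups overlapped, and the log2 fold change was 0.06 with an SE of 0.13 (limma, adjusted p = 0.944). Gapdh, often used as a reference gene, differed by -0.05, with its 6 probes between -0.09 and 0.01. Pgk1, which makes the first ATP of glycolysis, and Pgam1 and Eno1, which act in the steps after it, differed by -0.01, 0.02 and 0.02. The widest differences in this part belonged to the minor enolases, Eno2, the neuronal form, at -0.19 and Eno3, the muscle form, at 0.17. Ldhb, the heart-type subunit of lactate dehydrogenase, differed by 0.09.

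Several glycolytic genes are known targets of hypoxia-inducible factors, whose binding sites often contain the letters ACGTG. Sites with the letters GCGTG were not counted. Of the 48 genes, 45 were in the RefSeq promoter table of build GRCm38.p6 and Gpd1, Idh3a and Me2 were not. Windows ran from 250 bases before to 50 bases after the start, and ACGTG on either strand was found for 16 of 45 genes (35.6%), beside 21.8% of the 27025 symbols in the table. The E-box CACGTG, which contains the first motif, was found for 4 of 45 (8.89%, beside 8.09%), and TCAAGGTCA, a motif of the estrogen-related receptors, for 0 of 45 (beside 0.466%). The 16 genes with ACGTG had a median log2 fold change of -0.03, from -0.22 to 0.20, and the 28 tested genes without it a median of 0.03. Pgk1 and Pdk1, both hypoxia-inducible factor targets, are printed below with ACGTG matches on either strand in capitals. Pgk1 had a pair of matches and a difference near 0. Pdk1 had the highest log2 fold change of the set and no ACGTG match in the window shown. That Pdk1 window does hold GCGTG. The sequences are the 250 bases before the start on the plus strand, at chrX:106186850-106187099 for Pgk1 and at chr2:71872974-71873223 for the more upstream of the 2 Pdk1 starts in the table.
Pgk1: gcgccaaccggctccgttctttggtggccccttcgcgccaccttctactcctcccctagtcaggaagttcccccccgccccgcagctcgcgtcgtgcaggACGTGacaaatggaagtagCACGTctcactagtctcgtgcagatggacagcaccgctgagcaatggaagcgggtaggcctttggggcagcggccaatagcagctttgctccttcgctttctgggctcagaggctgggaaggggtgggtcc
Pdk1: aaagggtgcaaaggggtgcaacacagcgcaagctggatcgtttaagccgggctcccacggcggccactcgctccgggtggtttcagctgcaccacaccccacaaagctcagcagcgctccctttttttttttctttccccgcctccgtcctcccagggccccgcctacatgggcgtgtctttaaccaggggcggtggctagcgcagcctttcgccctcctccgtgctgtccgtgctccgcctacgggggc

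The oxidative branch of the pentose phosphate pathway makes NADPH, and its genes differed in direction. G6pdx, glucose-6-phosphate dehydrogenase, the control point of the branch, read 14.15 and 14.31 with scrambled and 14.27 and 13.91 with MOTS-c. Only MOTS-c replicate 3 lay below the scrambled arrays, and the log2 fold change was -0.14 with an SE of 0.18 (limma, adjusted p = 0.882). Pgls, the lactonase, was lower on both MOTS-c arrays at -0.11, and Pgd, the second NADPH-making dehydrogenase, was higher on both at 0.14. In the non-oxidative branch, which exchanges sugar phosphates with glycolysis, Tkt, Taldo1 and Rpia differed by -0.01, 0.06 and -0.08. Rpe, ribulose-5-phosphate epimerase, had the second highest log2 fold change of the set, 0.31, with an SE of 0.24 (limma, adjusted p = 0.809). Its log2 signals were 10.98 and 10.51 with scrambled and 10.83 and 11.28 with MOTS-c, so the groups overlapped. The difference was 0.08 without scrambled replicate 2 and also 0.08 without MOTS-c replicate 3, and its 3 probes gave values between 0.12 and 0.31.

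The pyruvate dehydrogenase complex, which turns pyruvate into acetyl-CoA, had a median log2 fold change of 0.11 over its 4 genes, which was 0.06 under normexp background correction. Pdha1, the subunit that the kinases phosphorylate, read 13.00 and 12.98 with scrambled and 13.09 and 12.87 with MOTS-c, a change of -0.01 with an SE of 0.14 (limma, adjusted p = 0.995). The other 3 subunits were higher with MOTS-c without overlap of the groups, as were 19.4% of all probes. Pdhb differed by 0.13 and Dlat by 0.09, while a second Dlat probe gave 0.21 with overlapping groups. Dld, the dihydrolipoamide dehydrogenase that this complex shares with the 2-oxoglutarate dehydrogenase complex, differed by 0.24 with an SE of 0.15. Dld read 12.62 and 12.35 with scrambled and 12.71 and 12.73 with MOTS-c (limma, adjusted p = 0.757), the third highest value of the set. Leaving out scrambled replicate 1 gave 0.37, and leaving out scrambled replicate 2 gave 0.10.

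Pyruvate dehydrogenase kinases phosphorylate Pdha1 and switch the complex off. Pdk1 had the highest log2 fold change of the 47 genes. It read 9.44 and 9.55 with scrambled and 9.96 and 9.75 with MOTS-c, and the groups did not overlap. The difference was 0.36 with an SE of 0.14 and a 95% interval from -0.01 to 0.73 (limma, unadjusted p = 0.0545, adjusted p = 0.647). The other 2 kept Pdk1 probes gave 0.26 and 0.23, with overlapping groups, and another was above background on 1 array and was not kept. Pdk2 read 7.81 and 8.00 with scrambled and 8.03 and 7.34 with MOTS-c, a difference of -0.22 with an SE of 0.26 (limma, adjusted p = 0.874), which was -0.57 without MOTS-c replicate 2 and 0.12 without MOTS-c replicate 3. Pdk3 read 11.08 and 11.40 with scrambled and 11.24 and 11.19 with MOTS-c, with a difference of -0.03 and an SE of 0.16 (limma, adjusted p = 0.984). Pdk4, the form induced by fasting, was not well above background on any array, its spot being 1.25 and 1.26 times the local background with scrambled and 1.13 and 1.16 times with MOTS-c.

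Pyruvate carboxylase and the malic enzymes carry the anaplerotic and pyruvate-cycling steps. Pcx, the carboxylase, read 13.71 and 13.65 with scrambled and 13.57 and 13.55 with MOTS-c, a difference of -0.12 with an SE of 0.12 (limma, adjusted p = 0.847). Me1, the cytosolic NADP-dependent malic enzyme, read 13.85 and 13.76 with scrambled and 13.68 and 13.64 with MOTS-c, a difference of -0.15 with an SE of 0.12 (limma, adjusted p = 0.821). Both genes were lower on both MOTS-c arrays, by amounts close to the SE. Me2, the mitochondrial form that uses NAD, differed by 0.06. Me3, the mitochondrial NADP-dependent form, had the second lowest value of the set, -0.53, with an SE of 0.37 and a 95% interval from -1.50 to 0.45 (limma, adjusted p = 0.784). It read 9.87 and 10.25 with scrambled and 10.03 and 9.03 with MOTS-c, so 1 array carried the difference. The difference was -0.03 without MOTS-c replicate 3 and -1.02 without MOTS-c replicate 2.

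**Figure D3:**
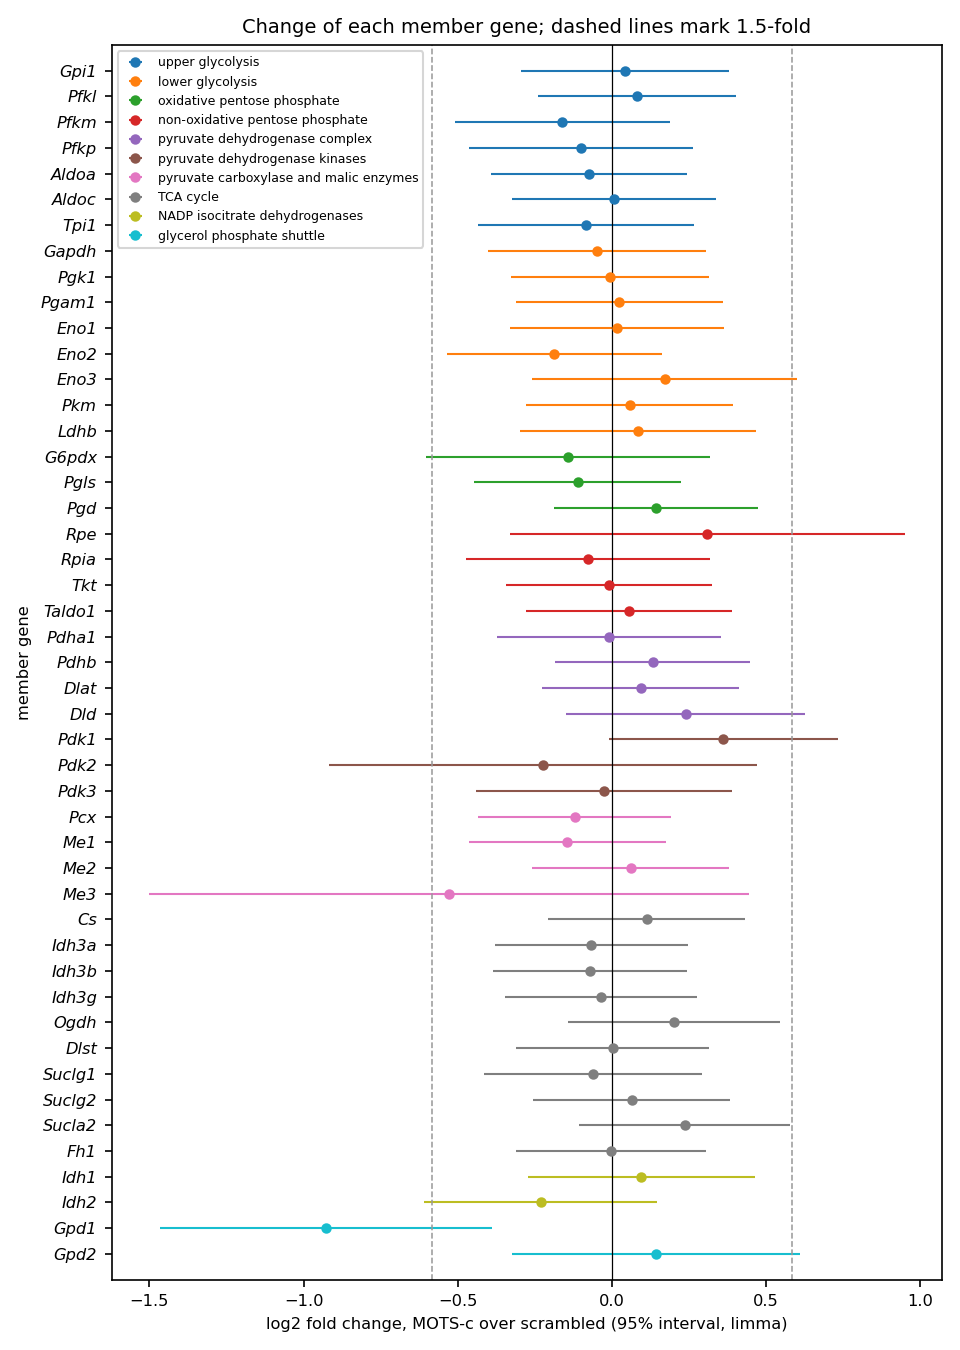
Points are log2 fold changes of MOTS-c over scrambled from limma (horizontal axis) for the 47 genes in pathway order (vertical axis), bars are 95% intervals, and colors mark enzyme groups. The interval of Gpd1 alone does not reach 0, that of Pdk1 ends at -0.01, and that of Me3 is the widest, from -1.50 to 0.45.

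The 10 TCA cycle genes had a median log2 fold change of -0.00 and a range from -0.07 to 0.24. Cs, citrate synthase, which starts the cycle, read 15.38 and 15.33 with scrambled and 15.42 and 15.51 with MOTS-c, a difference of 0.11 with an SE of 0.12 (limma, adjusted p = 0.861), but its second probe gave -0.08. The 3 subunits of NAD-dependent isocitrate dehydrogenase, Idh3a, Idh3b and Idh3g, were all lower on both MOTS-c arrays, by little. Such a separation was found for 18.6% of all probes. For Idh3a, the catalytic subunit, the log2 signals were 13.17 and 13.13 against 13.05 and 13.11, a difference of -0.07 with an SE of 0.12 (limma, adjusted p = 0.927). Idh3b and Idh3g differed by -0.07 and -0.04, and a second Idh3g probe gave -0.07 with overlapping groups.

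Ogdh, the rate-controlling subunit of the 2-oxoglutarate dehydrogenase complex, read 13.40 and 13.35 with scrambled and 13.49 and 13.66 with MOTS-c, a difference of 0.20 with an SE of 0.13 (limma, adjusted p = 0.769). The second Ogdh probe gave 0.00, and Dlst, another subunit of the same complex, also gave 0.00. Among the subunits of succinyl-CoA ligase, Sucla2, which pairs the reaction with ADP, was higher on both MOTS-c arrays by 0.24 with an SE of 0.13 (limma, adjusted p = 0.735), the highest value in the cycle. Suclg1, the shared subunit, differed by -0.06 and Suclg2, the GDP-specific one, by 0.06. The dimmer Suclg2 probe gave 0.71, but it read 7.09 on MOTS-c replicate 3 and between 5.59 and 5.65 on the other 3 arrays. Fh1, fumarase, differed by -0.00.

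The NADP-dependent isocitrate dehydrogenases differed in direction. Idh2, the mitochondrial form, read 15.68 and 15.57 with scrambled and 15.28 and 15.51 with MOTS-c, the third lowest value of the set at -0.23 with an SE of 0.14 (limma, adjusted p = 0.760). Its groups did not overlap, and its second probe gave -0.18. The difference was -0.12 without MOTS-c replicate 2 and -0.35 without MOTS-c replicate 3. Idh1, the cytosolic form, differed by 0.10.

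Of the 47 genes, 23 had more than 1 kept probe, and for 17 of these all probes had the same sign. The 6 genes with probes of both signs were Aldoc, Cs, Eno1, Gapdh, Pfkp and Pkm, and their probes lay between -0.10 and 0.11. Which probe was read therefore set the sign of Cs, with values of 0.11 and -0.08.

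Probes of the set were brighter than most, with a median log2 signal of 13.0 beside 8.57 over all probes, and their replicates lay closer together. The median difference between the 2 scrambled arrays was 0.08 for the set and 0.16 over all probes, and between the 2 MOTS-c arrays it was 0.10 and 0.19. Differences were therefore also read against probes of like signal, in steps of 1 log2 unit. There, 24 of the 47 genes lay within the 25th to 75th percentile of all probes. Gpd1, Me3 and Idh2 lay below the 5th percentile and Pdk1 above the 95th. These counts were near the shares of all probes that the percentiles set by definition.

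**Figure D4:**
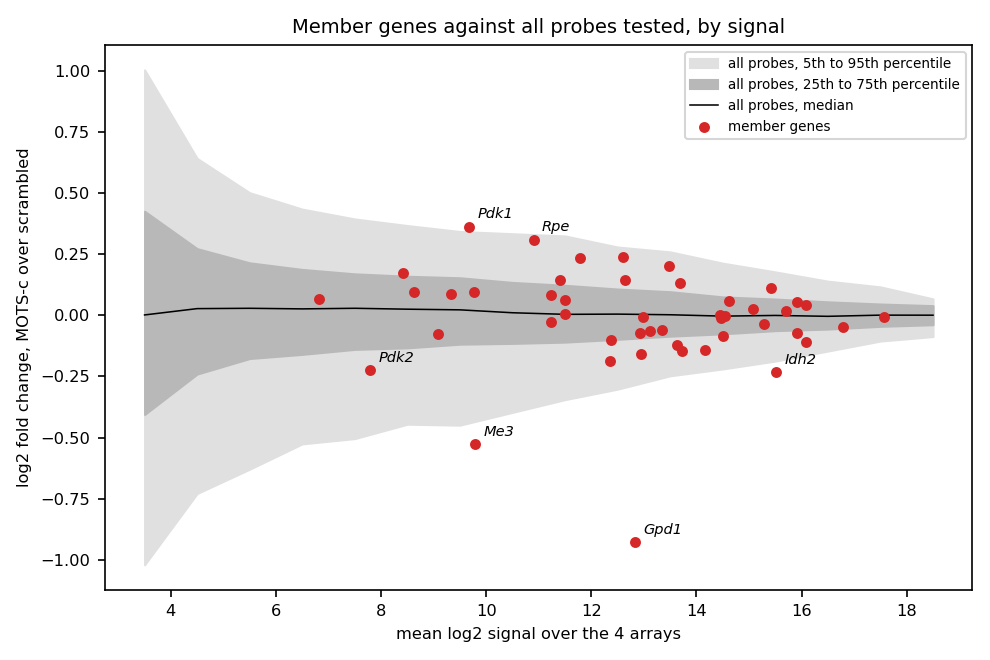
Log2 fold change of MOTS-c over scrambled (vertical axis) is plotted against the mean log2 signal over the 4 arrays (horizontal axis) for the 47 genes in red, over the 5th to 95th and 25th to 75th percentiles of all 35087 probes in grey. Gpd1, Me3 and Idh2 lie below the light band and Pdk1 above it.

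Further enzymes of these and neighboring pathways also had a median near 0. Of 42 such genes 38 were tested, and the median log2 fold change was -0.00. At an unadjusted limma p under 0.05, 0 were higher with MOTS-c (beside 3.03% of all probes) and 3 were lower (beside 4.82%). Among the latter, Hk3, a hexokinase, read 7.91 and 8.09 against 7.40 and 6.58, a difference of -1.01 with an SE of 0.30 (limma, adjusted p = 0.553). Pck2, mitochondrial phosphoenolpyruvate carboxykinase, differed by -0.34 with an SE of 0.13 (limma, adjusted p = 0.627). Both genes were lower on both MOTS-c arrays, and neither passed the adjusted threshold. Slc2a2, the β-cell glucose transporter, had a log2 fold change of -1.33 (limma, adjusted p = 0.474), but its probe was dim and above background on 3 arrays only.

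Of 18 regulators of these pathways 16 were tested, with a median log2 fold change of 0.09. Epas1, a hypoxia-inducible factor, was higher on both MOTS-c arrays, with log2 signals of 5.60 and 5.90 against 6.47 and 6.88, a difference of 0.93 with an SE of 0.20 (limma, unadjusted p = 0.00739, adjusted p = 0.505). The coactivators Ppargc1a and Ppargc1b were not kept. Of 10 hypoxia response genes, all tested, the median was 0.05. At an unadjusted limma p under 0.05, 0 were higher (beside 3.03% of all probes). Ndrg1 alone was lower at that level, at -0.42 (beside 4.82%). The groups did not overlap for 5 of the 10 that were higher with MOTS-c (beside 19.4% of all probes) and for 1 that was lower (beside 18.6%). The 7 housekeeping references had a median of 0.05, and 0 of them reached an unadjusted limma p under 0.05.

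**Figure D5:**
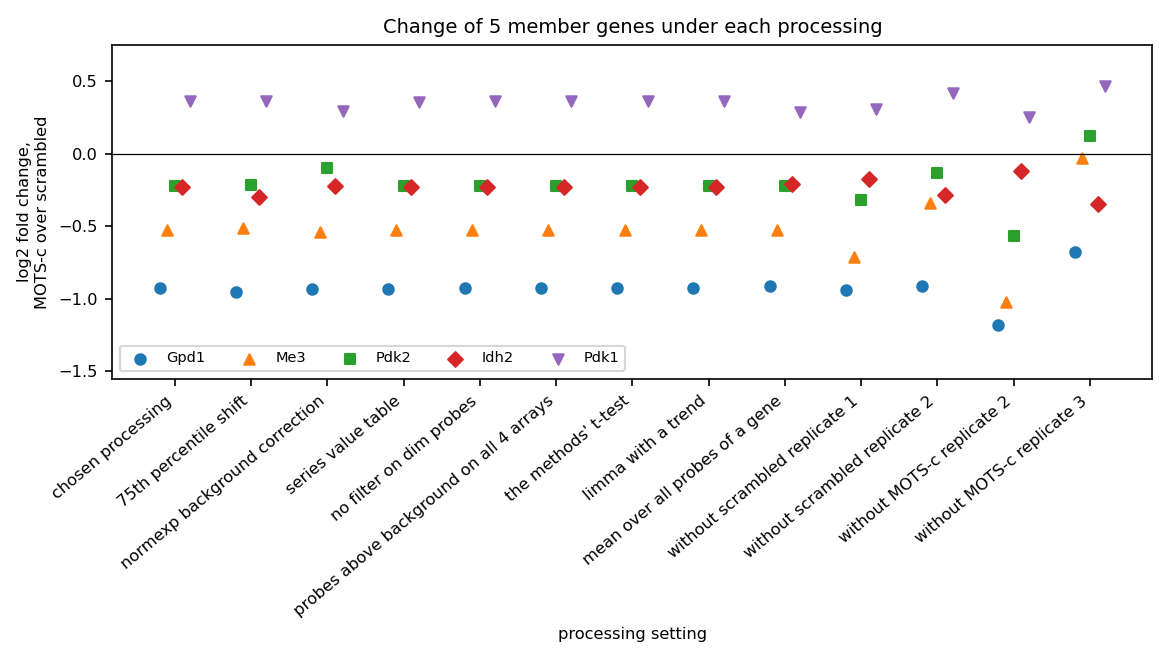
Log2 fold change of 5 genes (vertical axis) under the chosen processing and each of the 12 other settings (horizontal axis). Gpd1 stayed between -1.18 and -0.68 and Pdk1 between 0.25 and 0.47, whereas Me3 went from -1.02 to -0.03 and Pdk2 from -0.57 to 0.12 depending on which MOTS-c array was left out.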

How the data were processed

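Microarray data of islet cells were taken from 4 one-color arrays, 2 per group. The authors labeled amplified RNA with Cy3, scanned the slide and deposited the processed intensity of each spot, background-corrected but not normalized across arrays. A series table deposited by the authors held the same intensity values in rounded form, with a ratio to the scanner values between 0.995 and 1.005.

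Each array held 59305 gene spots and 3671 control spots. Control spots were removed, and so were between 96 and 131 outlier spots per array. The log2 of the remaining intensities was taken and averaged over the spots of each of 56605 probes. Of these, 35087 probes were well above background on 2 or more of the 4 arrays, and these were kept and quantile-normalized. The study's methods filter on a Flag A that they do not define, and this filter stood in its place. Gene symbols were assigned to 32994 probes through RefSeq accessions of assembly GRCm38.p6. The set had 81 probes, of which 78 were kept. MOTS-c and scrambled were compared over all kept probes in R 4.3.3 with limma 3.58.1 and Benjamini-Hochberg adjustment, at a threshold of 0.05. To 2 residual degrees of freedom per probe, limma added 2.64 prior ones. The pipeline was tested on simulated data. With 2 arrays per group, the number of arrays limits the precision.

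Groups came from the treatment labels and replicate numbers from the sample titles. The genes, the other gene lists and the tests were chosen with earlier results of these data known. Values on every array are given for genes at an unadjusted p under 0.05, for those without overlap and at least 1.5-fold, for the 3 highest and 3 lowest, and for enzymes that act as control points. Genes outside the set are named from the lists, where they had an unadjusted p under 0.05, mark a cell type or were not kept. Gpd1l was named as a homolog of Gpd1. A few genes of the other lists are not reported here.

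Alternatives replaced the quantile step by a 75th percentile shift, the background correction by normexp (offset 50, median spot signals), the scanner values by the series table, the filter by none or by one on all 4 arrays, the test by the methods' t-test or by limma with a trend, and the brightest probe by the mean over a gene's probes, or left out 1 array. A slide block was not run because all arrays lay on 1 slide. Promoter sequences are from RefSeq. No probe coordinates are given, since the array was designed on another build. Animal, serum, metabolite and qPCR data of the study were not analysed here.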

Additional observations from a re-analysis of the deposited data

How the results depend on the processing

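Of the 47 genes, 27 kept 1 sign under all 12 settings and 20 turned sign under at least 1. Under the 75th percentile shift 17 genes were higher and 30 lower with MOTS-c, with a median of -0.0610, and the median lay between -0.0610 and 0.00918 over all settings. No gene passed an adjusted p of 0.05 under any of them. The count of genes of the set at an unadjusted p under 0.05, 1 as reported, was 2 under the 75th percentile shift, normexp, no filter and the filter on all 4 arrays (Gpd1 and Pdk1), 3 under limma with a trend (Gpd1, Idh2 and Pdk1), 0 under the methods' t-test and 1 to 3 when 1 array was left out. Gpd1 had an unadjusted p of 0.0679 under the methods' t-test and was past the threshold under the other 11 settings. Over all probes, the unadjusted count of 2755 became 4633 without a filter and 1596 to 4576 when 1 array was left out. The count of genes whose groups did not overlap, 20 as reported, was 30 to 37 when 1 array was left out, since 3 arrays separate more easily.

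Medians of enzyme groups moved as follows. Under the 75th percentile shift they were -0.0499 for lower glycolysis, -0.18 for pyruvate carboxylase and the malic enzymes and -0.0621 for the TCA cycle, and under normexp -0.19 for pyruvate carboxylase and the malic enzymes and 0.0286 for the TCA cycle. With the mean over all probes, pyruvate carboxylase and the malic enzymes had -0.11. When 1 array was left out, medians ran from -0.18 to 0.13 for the pyruvate dehydrogenase kinases, from -0.168 to -0.0701 for pyruvate carboxylase and the malic enzymes, and from -0.0178 to 0.0168 for the TCA cycle. Over all settings, medians also turned sign for the NADP isocitrate dehydrogenases (-0.161 to 0.0241), the non-oxidative (-0.0356 to 0.0873) and the oxidative pentose phosphate branch (-0.177 to 0.0366) and lower glycolysis (-0.0499 to 0.0476). They kept 1 sign for upper glycolysis (-0.118 to -0.0353) and the pyruvate dehydrogenase complex (0.0571 to 0.142). The glycerol phosphate shuttle also kept 1 sign (-0.435 to -0.344), but its 2 genes differed in direction, Gpd1 at -0.93 and Gpd2 at 0.14. The cause of these shifts was not tested. No paired analysis was possible because the groups share fewer than 2 replicate numbers. With 2 arrays per group the median SE of 0.13 limits what can be seen, and Pdk4 had too little signal over background for a value.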

Other observations

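Markers of the islet cell types were read on the same arrays. Of 10 β-cell markers 9 were tested, with a median log2 fold change of -0.05, and at an unadjusted limma p under 0.05 Slc2a2 was lower with MOTS-c and 0 were higher. Of 5 α-cell markers 4 were tested, with a median of 0.39, and 3 of these were higher with MOTS-c. Irx2, an α-cell transcription factor gene, was higher on both MOTS-c arrays, with a log2 fold change of 0.68 from a dim probe. Gcg, which encodes glucagon, had 0.11. Ttr, a brighter marker on the same list, went the other way at -0.27, with overlapping groups. All 3 δ-cell markers were tested, with a median of -0.25 and 0 of them at an unadjusted limma p under 0.05. Hhex, from a dim probe, went the other way at 0.44 and was higher on both MOTS-c arrays. Sst, which encodes somatostatin, was highest on scrambled replicate 2, at 17.72, and between 17.16 and 17.17 on the other arrays. Ppy was the tested marker of PP cells, at 0.32, and Pyy was not kept.

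Of the non-endocrine lists, 3 of 6 duct markers were tested, with a median log2 fold change of -0.39, and Krt19, Sox9 and Cftr were not kept. For 2 of 6 endothelial and 4 of 8 immune markers that were tested, medians were 0.09 and -0.01, with 0 genes at an unadjusted limma p under 0.05.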
